A study of Mus musculus with 40 samples.

Results

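The miRNAs described here are the 10 main mature products of 3 related mouse loci: mmu-miR-17-5p, mmu-miR-18a-5p, mmu-miR-19a-3p, mmu-miR-20a-5p, mmu-miR-19b-3p and mmu-miR-92a-3p from the miR-17/92 cluster, mmu-miR-106b-5p, mmu-miR-93-5p and mmu-miR-25-3p from the miR-106b/25 cluster, and mmu-miR-92b-3p. The prefix is left out from here on. They were chosen by name, and all 10 were found among the 1894 mature miRNA entries of the table. They were followed in 4 IP groups and 4 input groups, from brown fat, from liver, from muscle and from hypothalamus. IP means small RNA pulled down on streptavidin after thiol-containing RNA had been biotinylated, input means the total small RNA of the tissue, and muscle means the gastrocnemius. Each of the 8 groups held 5 libraries, 40 in all, from 10 male mice aged 8 to 12 weeks. All groups, inputs included, came from UCP1;UPRT mice, which carried Tg(Ucp1-cre)1Evdr/J and Tg(CAG-GFP,-Uprt)985Cdoe/J and received 4-thiouracil (4TU) at 50 mg/kg into the abdominal cavity, 4 times, 48 h apart. UPRT is an enzyme that joins 4TU to ribose phosphate, which lets cells build it into new RNA, and its expression here rests on Cre from the Ucp1 promoter, a promoter of brown adipocytes. The comparison of IP with input asks which miRNAs carry the label in brown fat and in remote tissues. Libraries without 4TU, Cre or UPRT were not analysed here, so no background of the pull-down itself was measured.

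A miRNA guides Argonaute to messenger RNAs that pair with its seed, bases 2 to 8 of the mature strand. The miR-17/92 and miR-106b/25 clusters are each made as 1 transcript that is cut into several hairpins, and they are best known for promoting growth and survival of dividing cells, in part through targets such as Bim (Bcl2l11) and p21 (Cdkn1a). Products of the miR-17 seed act on cell cycle inhibitors, and those of the miR-25/92 seed on Bim and, for miR-92a, on integrin mRNAs of the endothelium. miR-92b is known from the developing and adult brain.

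The mature sequences are shown so that seed and base composition can be read beside the values. They are the RefSeq sequences of GRCm38.p6, 5′ to 3′, with the seed in capitals. The first 4 share the miR-17 seed, the next has the miR-18 seed, the next 2 the miR-19 seed and the last 3 the miR-25/92 seed.
miR-17-5p: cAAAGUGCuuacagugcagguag
miR-20a-5p: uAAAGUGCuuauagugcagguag
miR-106b-5p: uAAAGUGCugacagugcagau
miR-93-5p: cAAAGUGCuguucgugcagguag
miR-18a-5p: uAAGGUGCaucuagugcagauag
miR-19a-3p: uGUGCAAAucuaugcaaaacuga
miR-19b-3p: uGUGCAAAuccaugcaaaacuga
miR-92a-3p: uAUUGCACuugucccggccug
miR-25-3p: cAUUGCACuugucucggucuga
miR-92b-3p: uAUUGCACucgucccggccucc

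G and C made up 34.8% of miR-19a-3p, 39.1% of miR-19b-3p and miR-20a-5p, 42.9% of miR-106b-5p, 43.5% of miR-18a-5p, 47.8% of miR-17-5p, 50.0% of miR-25-3p, 52.2% of miR-93-5p, 57.1% of miR-92a-3p and 63.6% of miR-92b-3p. The miR-17/92 hairpins lie at chr14:115043671-115044506 of GRCm38, on the plus strand, 6 hairpins within 836 bases in an exon of the long noncoding RNA gene Mir17hg. The miR-106b/25 hairpins lie at chr5:138165321-138165818 on the minus strand, 3 hairpins within 498 bases of the gene Mcm7, a subunit of the replicative helicase. None of the 3 overlaps an exon of a protein-coding transcript of Mcm7, while those of miR-93 and miR-25 overlap exons of transcripts annotated as retained introns. The hairpin of miR-92b lies at chr3:89227116-89227198 on the minus strand. miR-19b-3p and miR-92a-3p are also made from another hairpin each, in a sister cluster on chromosome X, and the mature strand cannot show which copy a read came from.

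miR-19a-3p and miR-19b-3p differ at 1 of 23 bases and miR-17-5p and miR-20a-5p at 2 of 23, so reads can be shared between close relatives. The pool of the sequencing run cannot be told apart from the type of library, since all inputs were in pool 1 and all IPs in pool 2. Library totals ran from 11928 to 921297 counts in the IPs (median 222657) and from 153036 to 5562487 in the inputs (median 1284130). In CPM, counts per 1000000 counted miRNA reads, each tissue's marker list was highest in that tissue, with IPs and inputs compared apart. The hepatocyte list of 4 summed to 731100 to 822000 CPM in liver IPs and 453200 to 522400 CPM in liver inputs, and the neuron list of 4 to 75490 to 245200 CPM in hypothalamus IPs and 225700 to 359100 CPM in hypothalamus inputs. The brown fat list of 4 summed to 1094 to 1505 CPM in brown fat IPs and 4076 to 8093 CPM in brown fat inputs. In liver it summed to 20.1 to 158.4 CPM in IPs and 1074 to 1416 CPM in inputs, so brown fat IPs overlapped with liver inputs. The striated muscle list of 4 summed to 50610 to 256700 CPM in brown fat IPs and 69100 to 293300 CPM in brown fat inputs, against 485900 to 616900 CPM in muscle IPs and 630500 to 653600 CPM in muscle inputs. Hypothalamus input 4 stood apart: its muscle list summed to 189100 CPM and its hepatocyte list to 22920 CPM, while the other 4 hypothalamus inputs were at 1532 to 2558 and 1155 to 1305 CPM. Liver IP 4 was the smallest library, with 11928 counts and 16320 CPM of muscle miRNAs, against 451.7 to 1339 CPM in the other 4 liver IPs. Without liver IP 4 each member's call for IP against input in liver was the same.

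Among the 10 miRNAs, the pull-down held almost only the 3 members with the miR-25/92 seed. This does not extend to all miRNAs of that seed: miR-32-5p, outside the 10, had 1 rounded count over all IPs against 1245 over all inputs. Together miR-92a-3p, miR-25-3p and miR-92b-3p made up 94.8% ± 1.35 of the 10 miRNAs' counts in brown fat IPs and 61.6% ± 6.71 in brown fat inputs (SD, n = 5 each). They made up 98.1% ± 1.76 in liver IPs against 65.6% ± 3.75 in liver inputs. In muscle they made up 98.6% ± 1.10 in IPs and 55.9% ± 12.8 in inputs, and in hypothalamus 99.4% ± 0.718 in IPs and 74.8% ± 6.19 in inputs. In each tissue the lowest IP library was above the highest input library. Brown fat, liver and muscle divided this share mainly between miR-92a-3p and miR-25-3p, while in hypothalamus miR-92b-3p alone made up 82.2% ± 8.16 of the 10 miRNAs' counts in IPs and 36.7% ± 5.46 in inputs (SD, n = 5 each).

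**Figure D1:**
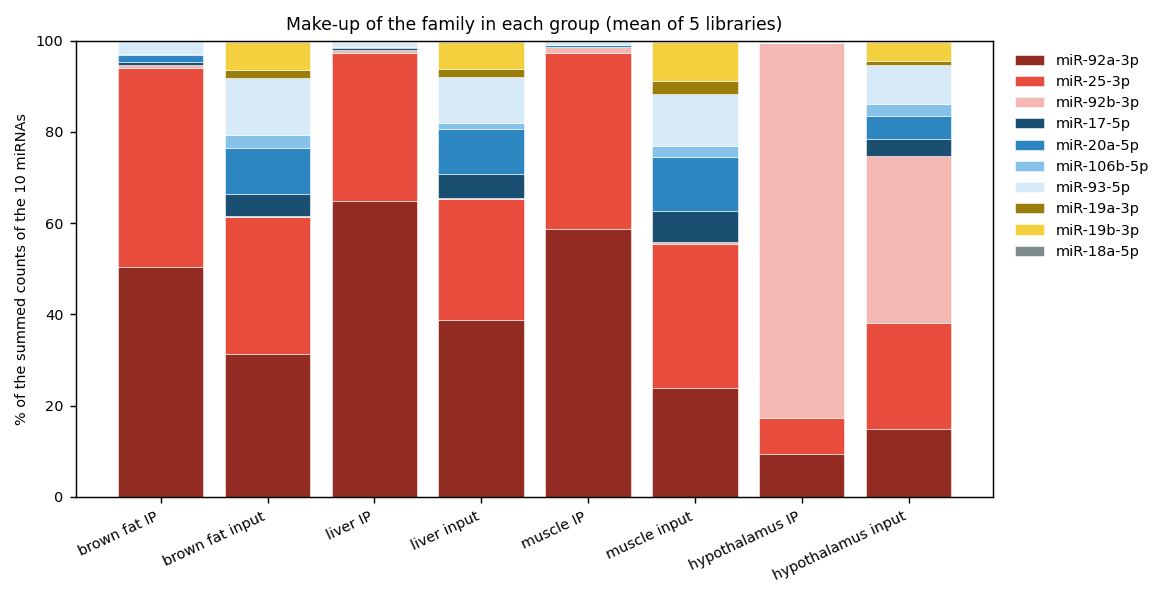
Bars show the mean share of each miRNA in the summed counts of the 10 miRNAs, in percent, over the 5 libraries of each group, with IP left of input for each tissue. The red parts, of the miR-25/92 seed, make up 94.8% to 99.4% of the IP bars and 55.9% to 74.8% of the input bars.

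All 10 together took 0.471% ± 0.178 of all counts in brown fat IPs and 0.585% ± 0.117 in brown fat inputs (SD, n = 5 each), so the family as a sum overlapped between IPs and inputs. The same share was 0.265% ± 0.216 in liver IPs and 0.291% ± 0.0767 in liver inputs, 0.0706% ± 0.0571 in muscle IPs and 0.0668% ± 0.00826 in muscle inputs, and 0.423% ± 0.189 in hypothalamus IPs and 0.184% ± 0.0541 in hypothalamus inputs. Taken singly, 7 members had every IP below every input in brown fat, liver and muscle, and 6 in hypothalamus, where miR-92b-3p had every IP above. Of the members that passed the filter on low counts, 6 of 9 lay wholly below in brown fat, 6 of 8 in liver, 6 of 8 in muscle and 3 of 6 in hypothalamus. Of all entries tested in brown fat, 51.8% lay wholly below and 13.1% wholly above. The same shares were 60% and 11% for liver, 55.6% and 17.9% for muscle, and 45.1% and 16.1% for hypothalamus.

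**Figure D2:**
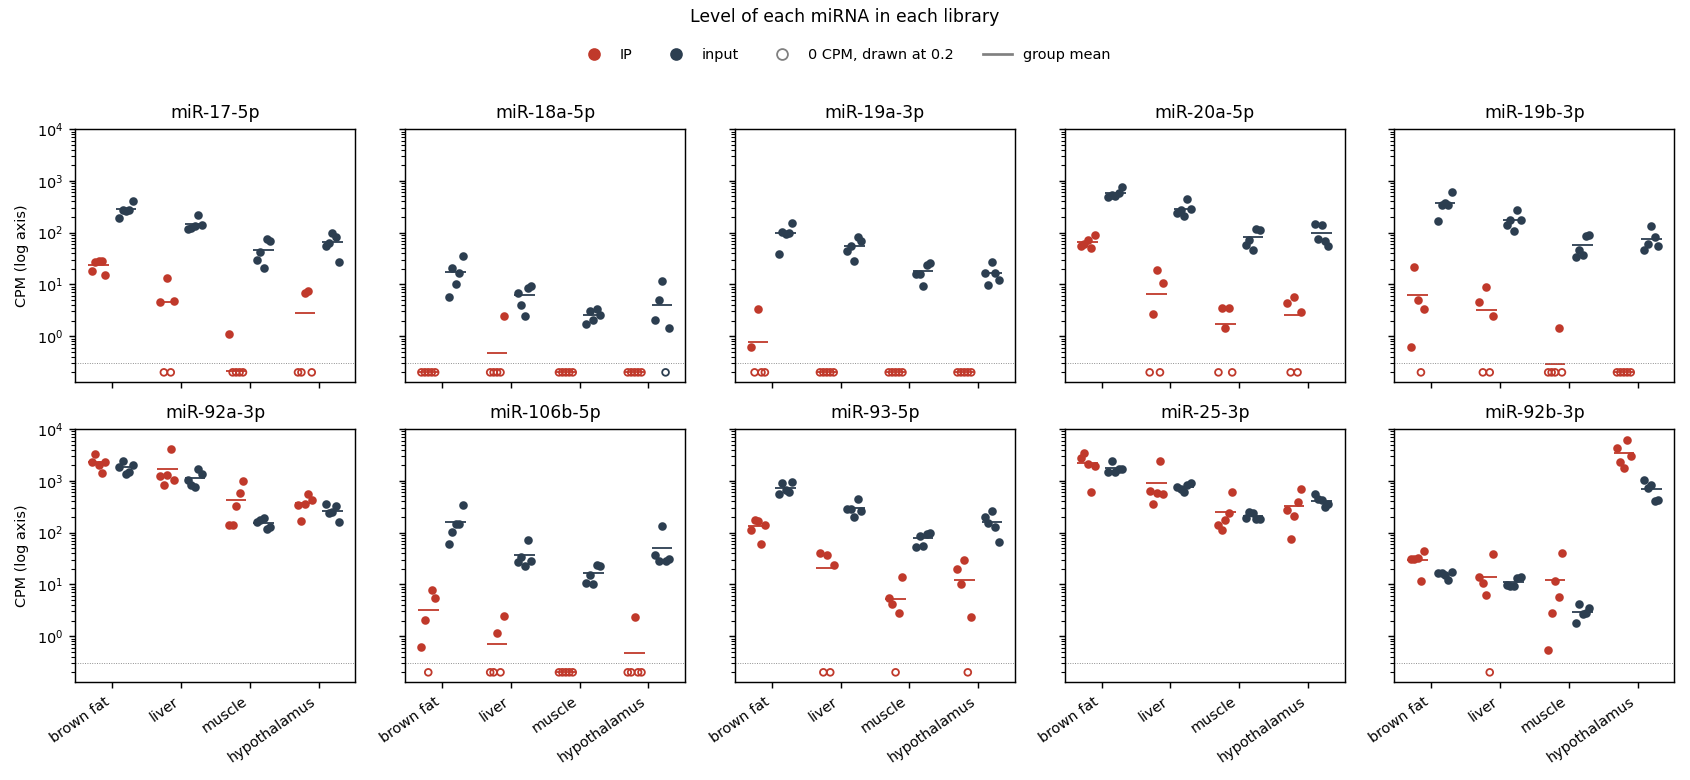
Each panel is 1 miRNA, with its level in CPM on a log axis in each library of the 4 tissues. Red points are IPs, dark points inputs, lines group means, and open points are libraries at 0 CPM drawn at 0.2. IPs lie below inputs for 7 of the 10 miRNAs, apart from an overlap of miR-18a-5p in hypothalamus, while miR-92a-3p and miR-25-3p overlap in every tissue and miR-92b-3p stands above its inputs in hypothalamus.

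Counts were tested with edgeR's quasi-likelihood test after scaling by the trimmed mean of M values (TMM), and p was adjusted over all entries by the Benjamini-Hochberg method, with 0.05 as the threshold. In brown fat 9 of the 10 miRNAs passed the filter on low counts, and 3 were higher and 6 lower in the IP than in the input. Of all 305 entries tested there, 36.7% were higher and 43.3% lower. In liver 8 passed the filter, with 2 higher and 6 lower, where 28.5% of 200 entries were higher and 46% lower. In muscle 8 passed, with 2 higher and 6 lower, against 28.7% higher and 56.3% lower of 268. In hypothalamus 6 passed, with 2 higher, 3 lower and miR-25-3p not called, against 28.2% higher and 47.3% lower of 273. The members were few, and a miRNA near 0 in the IP could pass the filter only through its input. With miRNAs at 0 in the IP set to their bound, the median log2 change of those that passed was −2.01 in brown fat, −2.08 in liver, −2.94 in muscle and −1.19 in hypothalamus. For all entries tested the median of the fitted changes, with no bounds set, was −0.34, −0.78, −1.41 and −1.04. The last 4 values depend on the scaling: they were −0.67, −1.72, −1.95 and −1.2 with the median of ratios (RLE), and −1.44, −2.40, −2.29 and −1.84 with the total count alone.

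miR-92a-3p, the last hairpin of the miR-17/92 transcript, stood at 2300, 3362, 2024, 1447 and 2270 CPM in brown fat IPs and 1839, 2431, 1348, 1496 and 2023 CPM in brown fat inputs. The groups overlapped, with 1 IP above every input. The log2 change was 1.39 (SE 0.25, adjusted p = 7.29e-05, edgeR), but 0.32 with adjusted p = 0.312 with the total count as the scaling. miR-17-5p, the first hairpin of the same transcript, stood at 18.4, 27.7, 28.8, 28.5 and 15.2 CPM in brown fat IPs and 195.7, 276.8, 258.2, 279.1 and 417.5 CPM in brown fat inputs. Every IP was below every input. It fell by 2.48 (SE 0.30, adjusted p = 1.02e-06, edgeR), and was called with all alternatives run.

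miR-20a-5p, a near copy of miR-17-5p, fell by 2.01 in brown fat (SE 0.27, adjusted p = 2.78e-06, edgeR), with 51.0 to 89.5 CPM in IPs and 481.5 to 777.6 CPM in inputs. miR-19b-3p, which sits between miR-20a and miR-92a on the transcript, was almost lost from the pull-down. It stood at 0.612, 21.9, 4.94, 0 and 3.41 CPM in brown fat IPs and 168.3, 348.5, 380.7, 337.6 and 604.2 CPM in brown fat inputs. Its sum was 9 counts over the IPs against 2484 over the inputs, and its log2 change was −5.07 (SE 0.56, adjusted p = 3.59e-07, edgeR). It passed the filter only through its inputs. Its relative miR-19a-3p had 1 rounded count over the 5 IPs, 1.5 before rounding, against 652 over the inputs. On the rounded counts it was 85.2-fold lower on the TMM scale, with an exact 95% interval of 15.2 to 3370. That interval covers counting error only. miR-18a-5p, the scarcest of the cluster, was at 0 counts over the IPs against 116 over the inputs, and was at least 5.05-fold lower at a bound of 3 counts over the group; it did not pass the filter.

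In the miR-106b/25 cluster, miR-25-3p, from the last hairpin, stood at 2745, 3469, 2102, 605.4 and 1927 CPM in brown fat IPs and 1461, 2415, 1454, 1684 and 1729 CPM in brown fat inputs. IP 4 lay below every input and IPs 1 and 2 above every input. Its log2 change was 1.39 (SE 0.33, adjusted p = 0.001, edgeR), and 0.31 with adjusted p = 0.435 on the total count. miR-93-5p, the middle hairpin, stood at 112.4, 177.5, 167.2, 59.4 and 142.0 CPM in IPs and 552.0, 898.0, 677.6, 610.8 and 971.3 CPM in inputs. It fell by 1.37 (SE 0.28, adjusted p = 0.000219, edgeR), with no overlap. miR-106b-5p, the first hairpin, stood at 0.612, 2.09, 0, 7.69 and 5.36 CPM in IPs and 60.3, 104.7, 149.9, 149.6 and 343.2 CPM in inputs. It fell by 5.03 (SE 0.70, adjusted p = 4.37e-06, edgeR), a fitted value. It had 4 rounded counts over the IPs against 1095 over the inputs, and passed the filter only through its inputs.

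In liver, where hepatocytes do not express Ucp1, miR-92a-3p stood at 1261, 823.9, 1304, 4094 and 1019 CPM in IPs and 1061, 816.4, 778.2, 1686 and 1369 CPM in inputs. The groups overlapped, and the high value belonged to the small library IP 4. Its log2 change was 1.69 (SE 0.36, adjusted p = 0.000182, edgeR) and 1.73 without IP 4, and it missed the threshold with the total count (0.50, adjusted p = 0.316) and without a filter (0.96, adjusted p = 0.108). miR-25-3p had 1.23 (SE 0.34, adjusted p = 0.00196, edgeR), a call that was lost with RLE, with the total count, without a filter, with DESeq2 and without any 1 of the 5 liver inputs, at 0.10 to 0.65. miR-17-5p stood at 4.54, 0, 13.5, 0 and 4.82 CPM in liver IPs and 115.6, 125.0, 132.3, 220.5 and 137.6 CPM in liver inputs, and fell by 2.63 (SE 0.54, adjusted p = 0.000123, edgeR). miR-20a-5p (−3.13), miR-19b-3p (−3.64) and miR-93-5p (−1.81) fell as well, by fitted values from few IP counts. miR-20a-5p had 10 rounded counts over the IPs against 1315 over the inputs. miR-19b-3p had 4 against 789, all 4 in IP 3, and miR-93-5p 26 against 1333. miR-19a-3p was at 0 counts in IPs against 251 in inputs, at least 5.13-fold lower, and miR-106b-5p at 0 rounded counts against 160, at least 3.27-fold lower. For miR-18a-5p, at 0 against 27, the depth allowed no fold.

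In muscle, miR-92a-3p stood at 138.4, 139.1, 324.3, 575.2 and 975.4 CPM in IPs and 158.0, 176.1, 194.3, 118.4 and 127.8 CPM in inputs, with 3 IPs above every input. These 3, IPs 3, 4 and 5, were the smallest muscle IP libraries, with totals of 347232, 349303 and 109978 counts. IPs 1 and 2, with 921297 and 724954 counts, lay within the range of the inputs. The part of depth in this was not tested. The log2 change of miR-92a-3p was 1.83 (SE 0.30, adjusted p = 4.87e-06, edgeR), called with all alternatives run. miR-25-3p had 0.75 (SE 0.26, adjusted p = 0.0107, edgeR), which missed the threshold with RLE (0.26), the total count (0.24), DESeq2 (0.18) and without muscle IP 1 (0.53), and was −0.05 without a filter. miR-17-5p had 1 count over the 5 IPs, in IP 1, against 991 over the inputs, 55.6-fold lower with an exact 95% interval of 9.95 to 2200. miR-19b-3p was at 0 rounded counts against 1227, at least 22.9-fold lower, miR-106b-5p at 0 against 348, at least 6.5-fold lower, and miR-19a-3p at 0 against 381, at least 7.12-fold lower. miR-18a-5p was at 0 against 54, close to what the depth can show. miR-20a-5p fell too (log2 change −4.94, SE 0.60), with 3 rounded counts over the IPs against 1700 over the inputs. So did miR-93-5p (−3.04, SE 0.44), with 11 against 1614.

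In hypothalamus the abundant product of this family was miR-92b-3p. It stood at 4362, 2366, 1785, 6063 and 2994 CPM in IPs and 1048, 715.8, 844.6, 408.4 and 434.0 CPM in inputs, with every IP above every input. It rose by 3.10 (SE 0.35, adjusted p = 8.28e-06, edgeR), and by 3.02 without hypothalamus input 4. miR-92a-3p had 1.12 (SE 0.39, adjusted p = 0.0202, edgeR), which was 1.38 without input 4 and missed the threshold without input 1, 2 or 3 or IP 5, at 0.79 to 0.97, with the total count (0.46) and without a filter (0.49). miR-25-3p, at 74.7 to 701.2 CPM in IPs and 308.8 to 547.7 CPM in inputs, was not called, and its value turned from 0.46 to −0.33 with the total count, −0.14 without a filter and −0.25 without IP 5. miR-20a-5p fell (log2 change −3.88, SE 0.50), with 3 rounded counts over the IPs against 778 over the inputs. miR-93-5p fell as well (−2.83, SE 0.62), with 11 against 1164. miR-19b-3p was at 0 counts in IPs against 619 in inputs, at least 10.8-fold lower, and miR-17-5p had 2 counts against 432, 11.3-fold lower with an interval of 3.12 to 93.8. miR-106b-5p at 0 rounded counts against 421 was at least 7.36-fold lower, and miR-19a-3p at 0 against 139 at least 2.43-fold lower. For miR-18a-5p the depth allowed no fold.

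**Figure D3:**
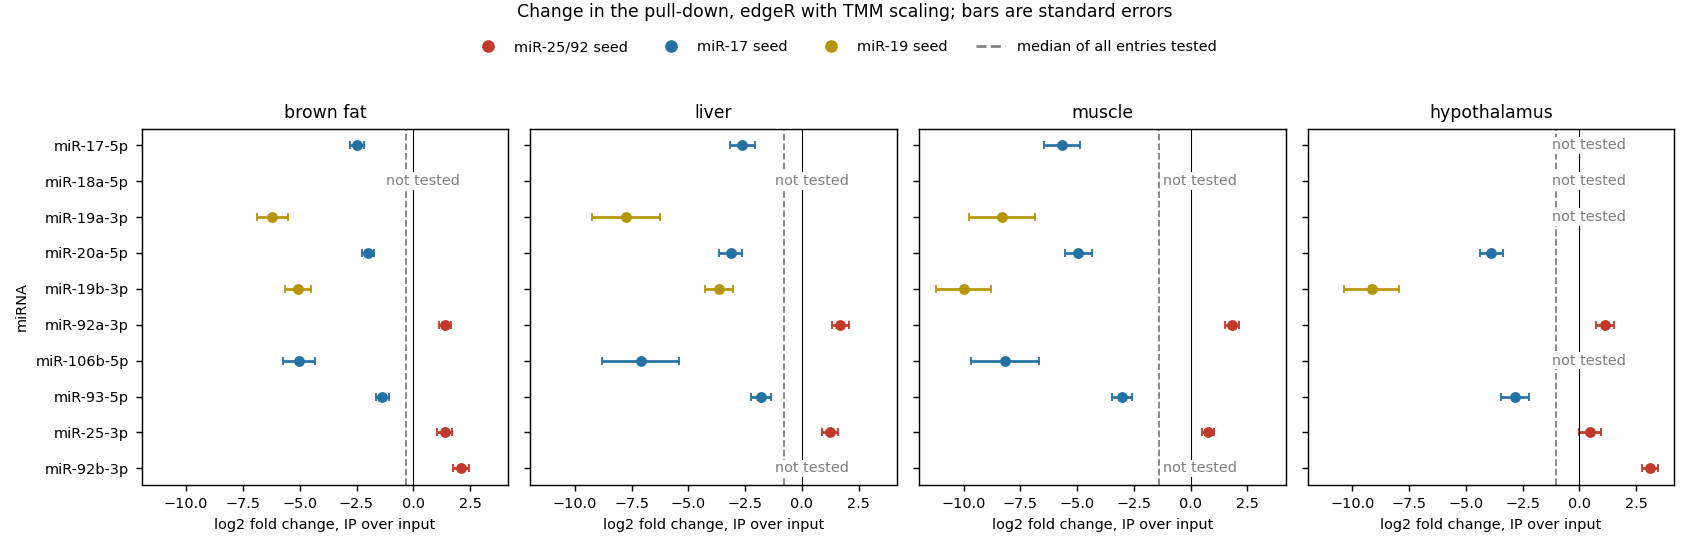
Points show the log2 fold change of IP over input for each miRNA in each tissue on the TMM scale, with standard errors. The dashed line is the median of all entries tested, between −0.34 and −1.41. miR-92a-3p and miR-25-3p lie right of it in every tissue, at 0.46 to 1.83, and the total count as scaling moves them to −0.33 to 0.50 except for miR-92a-3p in muscle; the miR-17 and miR-19 seeds lie left of it. Fitted values of miRNAs at 0 in the IP are not bounds.

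Set against the median of all entries, the changes depended less on the scaling. A scaling moves all entries of a comparison by nearly the same amount, so this holds by construction and is no check of the calls. In brown fat miR-92a-3p lay 1.73 to 1.76 above that median, and for liver the distance was 2.47 to 2.90, for muscle 3.24 to 3.74 and for hypothalamus 2.16 to 2.30, over TMM, RLE and the total count on the log2 scale. miR-25-3p lay 1.72 to 1.75, 2.01 to 2.50, 2.16 to 2.53 and 1.47 to 1.51 above it in the same tissues. miR-93-5p, the nearest of the others, lay at −1.06 to −1.03 from it in brown fat and −1.84 to −1.79 in hypothalamus.

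Ratios of members counted in the same library do not depend on scaling at all. In brown fat, miR-92a-3p outnumbered miR-17-5p from the same transcript by a factor of 121.2, 113.1, 66.4, 47.0 and 139.5 in the 5 IPs, against 9.4, 8.8, 5.2, 5.4 and 4.8 in the 5 inputs. Every IP lay above every input. The mean log2 ratio was 6.49 ± 0.66 in brown fat IPs and 2.69 ± 0.45 in brown fat inputs (SD, n = 5 each), a difference of 3.81. The same difference was 4.19 in liver, 5.81 in muscle and 3.99 in hypothalamus. For miR-92a-3p to miR-19b-3p it was 6.51, 4.65, 6.28 and 4.83 in brown fat, liver, muscle and hypothalamus. For miR-25-3p to miR-93-5p it was 2.67, 3.62, 3.92 and 2.90, with 9.8- to 24.3-fold in brown fat IPs and 1.8- to 2.8-fold in brown fat inputs. In all 12 of these comparisons every IP lay above every input. A two-sided exact permutation test gave p = 0.007937, the smallest that regrouping 5 against 5 allows, and adjusted p = 0.009768 over the 16 ratios tested. The test regroups libraries freely and takes no account of an IP and an input coming from the same mouse. A pseudocount of 0.5 counts was used, which sets the ratio where miR-17-5p or miR-19b-3p is at 0 in an IP.

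miR-92b-3p and miR-92a-3p share their seed but come from different chromosomes, and their ratio was compared in the same way. In hypothalamus miR-92b-3p outnumbered miR-92a-3p at least 4.9-fold in every IP and 1.2- to 3.4-fold in inputs, a log2 difference of 1.87 with no overlap (exact permutation p = 0.007937, adjusted p = 0.009768). Without input 4 it was 1.61 (adjusted p = 0.02116). In the other tissues miR-92b-3p was scarce. The difference was 0.60 in brown fat with overlapping groups (exact permutation p = 0.03968, adjusted p = 0.04535), and it lost its call without any of 7 libraries in turn, at 0.45 to 0.61. It was 0.42 in liver (exact permutation p = 0.4762) and 0.12 in muscle (p = 0.8333).

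**Figure D4:**
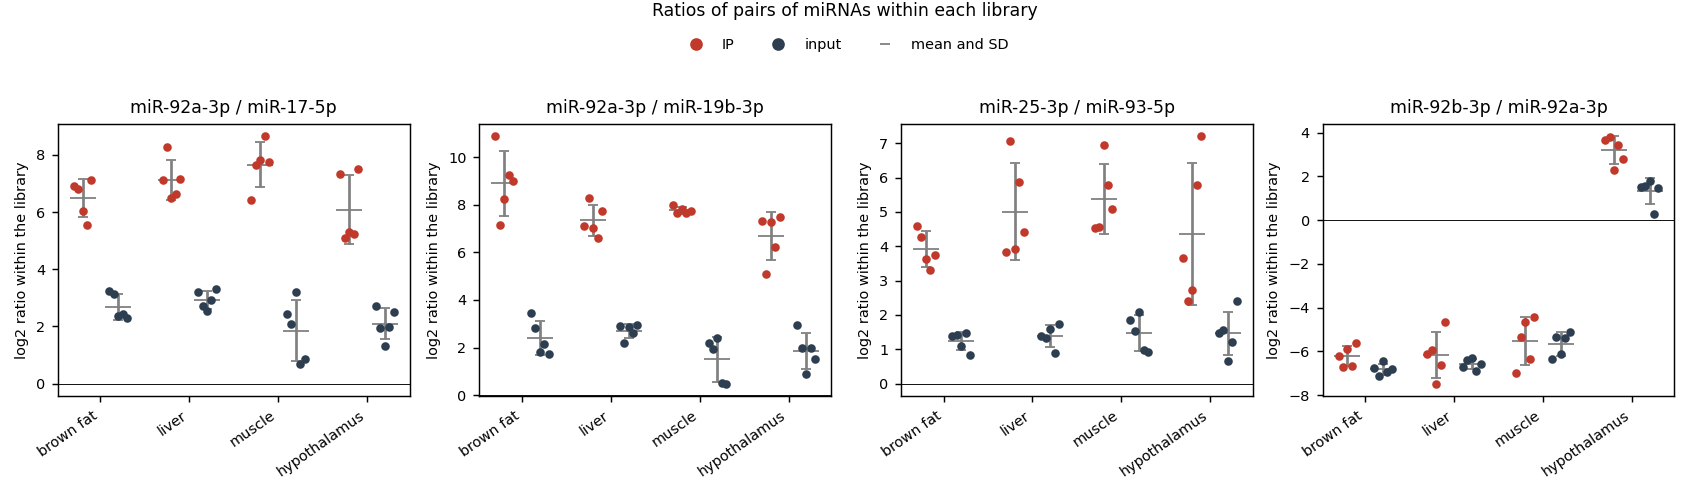
Each panel shows the log2 ratio of a pair of miRNAs within each library, IP in red left of input in dark, with group means and SD in grey. In the first 3 panels IPs lie above inputs in all tissues; in the last, the ratio of miR-92b-3p to miR-92a-3p separates in hypothalamus, at 3.20 in IPs and 1.33 in inputs.

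In brown fat miR-92b-3p itself stood at 30.6, 30.3, 32.1, 11.9 and 45.0 CPM in IPs and 16.5, 16.8, 15.03, 11.9 and 17.7 CPM in inputs. Its log2 change was 2.09 (SE 0.34, adjusted p = 2.8e-05, edgeR) and 0.98 with the total count (adjusted p = 0.0151), with IP 4 level with the lowest input and the other 4 IPs above every input. In liver it was at 0 to 38.5 CPM in IPs and 9.29 to 13.6 CPM in inputs, and in muscle at 0.543 to 40.9 CPM in IPs and 1.80 to 4.22 CPM in inputs. It did not pass the filter in these tissues.

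Whether the change in the pull-down differed between tissues was tested as an interaction over the 20 libraries of each pair. Against muscle, 1 of 9 members was called: miR-20a-5p lost less in brown fat, with a difference of 2.66 (SE 0.72, adjusted p = 0.0122, edgeR), called in all alternatives run. Of all 324 entries 12.7% were higher and 8.33% lower there. The muscle side of this call rested on 3 rounded counts of miR-20a-5p over the 5 IPs, 4.25 before rounding, against 1700 over the inputs. On the rounded counts that is 31.8-fold lower with an exact 95% interval of 10.9 to 154, so the size of the difference is limited by depth. miR-17-5p differed by 2.93 with adjusted p = 0.0508; 7.78 and adjusted p = 0.0246 without muscle IP 1, a fitted value and no bound since the other 4 muscle IPs were at 0, and 3.18 with adjusted p = 0.022 with the mouse as a block. It also passed with the total count (3.01, adjusted p = 0.0435) and without a filter (3.23), and miR-92a-3p passed with RLE (−0.90, adjusted p = 0.0396) where TMM gave −0.75 (adjusted p = 0.132). miR-93-5p differed by 1.35 (adjusted p = 0.0588), and passed without any 1 of 8 libraries, among them 1.89 without muscle IP 1. Against liver 0 of 9 members were called by edgeR, with no member at an unadjusted p under 0.05 other than miR-20a-5p, which differed by 1.52 (SE 0.59, adjusted p = 0.103) and by 2.85 without liver IP 3 (adjusted p = 0.0153); the background was 8.12% higher and 0.325% lower of 308. Against hypothalamus 2 of 9 were called lower in brown fat, miR-92a-3p by −1.61 (SE 0.45, adjusted p = 0.00955) and miR-92b-3p by −2.88 (SE 0.56, adjusted p = 0.00058), where 2.13% of 422 entries were higher and 32.2% lower. This fit turned with its scaling: the median entry was −1.30 with TMM, −0.21 with RLE and 0.17 with the total count, and without any 1 of 17 of its 20 libraries the values of miR-92a-3p became 1.33 to 1.90 and those of miR-92b-3p 0.12 to 0.91. The direction of these 2 differences is therefore not settled by these libraries; relative to the median entry miR-92b-3p differed by −1.60 to −1.55 and miR-92a-3p by −0.32 to −0.25 over the 3 scalings.

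The inputs give the levels of the family in the tissues. In CPM, miR-92a-3p stood at 1827 ± 430.7 in brown fat, 1142 ± 385 in liver, 267 ± 81.1 in hypothalamus and 154.9 ± 31.9 in muscle (SD, n = 5 each). Brown fat overlapped with liver (1348 to 2431 against 778.2 to 1686 CPM), and hypothalamus with muscle (157.0 to 362.2 against 118.4 to 194.3 CPM). miR-25-3p stood at 1749 ± 393.2, 753.2 ± 107.4, 415.8 ± 91.7 and 208.5 ± 29.5 CPM in the same tissues, with no overlap. miR-17-5p stood at 285.5 ± 81.2 CPM in brown fat, 146.2 ± 42.3 in liver, 64.7 ± 26.8 in hypothalamus and 47.2 ± 23.9 in muscle. Brown fat overlapped with liver (195.7 to 417.5 against 115.6 to 220.5 CPM), and hypothalamus with muscle. The order in CPM is not that on the TMM scale, where miR-92a-3p differed between brown fat and liver by −0.55 (adjusted p = 0.112, edgeR; 0.68 with the total count, adjusted p = 0.0267) and miR-25-3p by −0.06. CPM is set by the most abundant miRNAs of a tissue, and in muscle the striated muscle list alone made up 630500 to 653600 CPM. miR-92b-3p was a miRNA of the hypothalamus, at 690.1 ± 272.6 CPM there against 15.6 ± 2.27 CPM in brown fat, 11.1 ± 2.21 in liver and 2.99 ± 0.920 in muscle.

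On the TMM scale, all 10 members were tested over 444 entries in the inputs. miR-92b-3p was higher in hypothalamus than in brown fat by 5.0 (SE 0.25, adjusted p = 2.43e-13, edgeR), than in liver by 4.25 (SE 0.25) and than in muscle by 5.28 (SE 0.26), called in all alternatives run. The other 9 were lower in hypothalamus than in brown fat, by −3.18 for miR-92a-3p to −2.07 for miR-106b-5p, and lower than in liver, by −3.73 for miR-92a-3p to −1.19 for miR-106b-5p, which was at 0.53 with the total count. Of all entries 48.9% were higher and 35.1% lower in hypothalamus than in brown fat, and 48.9% and 32% than in liver. Against muscle the same 9 were lower by −2.71 to −0.96, where 52% of entries were higher and 31.1% lower, but with the total count as the scaling 8 of them turned to 0.28 to 1.65 and miR-19a-3p to −0.17, so no order of hypothalamus and muscle is given for them. Between brown fat and muscle 5 were higher in brown fat, against 22.7% of entries higher and 17.3% lower: miR-92a-3p by 1.38 (SE 0.28, adjusted p = 0.000496, edgeR), miR-93-5p by 1.14, miR-106b-5p by 1.10, miR-25-3p by 0.89 and miR-20a-5p by 0.75. The calls of miR-20a-5p and miR-106b-5p were lost with RLE, with DESeq2 and with the mouse as a block, that of miR-20a-5p also without a filter (0.67) and that of miR-106b-5p also without brown fat input 5 (0.76). Between liver and muscle 8 were higher in liver, against 27.5% higher and 27.3% lower, led by miR-92a-3p with 1.93 (SE 0.28). The calls of miR-17-5p, miR-19a-3p and miR-19b-3p there were lost with RLE, with DESeq2 and without a filter, at 0.53 to 0.67. Between brown fat and liver, where 26.4% of entries were higher and 19.6% lower, 1 member was called: miR-92b-3p was lower in brown fat by −0.75 (SE 0.25, adjusted p = 0.0197, edgeR), a call lost with the mouse as a block (−0.48), with DESeq2, without a filter and without brown fat input 3, brown fat input 4 or liver input 5, and at 0.48 with the total count.

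Markers of other cells were summed in the same libraries. The endothelial list, miR-126a-3p and miR-126a-5p, summed to 1548 to 3030 CPM in brown fat IPs and 23840 to 57150 CPM in brown fat inputs, to 93.4 to 436.0 CPM in liver IPs and 4104 to 6648 CPM in liver inputs, to 71.2 to 503.6 CPM in muscle IPs and 3646 to 5536 CPM in muscle inputs, and to 44.8 to 297.3 CPM in hypothalamus IPs and 2307 to 6626 CPM in hypothalamus inputs. The red blood cell list of 3 summed to 0.869 to 4.29 CPM in brown fat IPs, with miR-144-3p and miR-144-5p at 0, and 64.0 to 813.5 CPM in brown fat inputs. The leukocyte list of 4 summed to 392.3 to 723.6 CPM in brown fat IPs and 782 to 1971 CPM in brown fat inputs. In the other 3 tissues the red blood cell list was at 0 to 1.13 CPM in IPs and 3.84 to 52.1 CPM in inputs. The leukocyte list was at 0 to 28.1 CPM in liver IPs and 56.2 to 240.3 CPM in liver inputs, at 11.1 to 145.5 CPM in muscle IPs and 44.9 to 98.2 CPM in muscle inputs, and at 71.1 to 473.7 CPM in hypothalamus IPs and 76.6 to 234.4 CPM in hypothalamus inputs. The endothelial and red blood cell lists were lower in every IP than in every input of each tissue, and the leukocyte list overlapped in muscle and hypothalamus. Of that list, miR-142a-3p and miR-142a-5p were at 0 rounded counts in muscle IPs, and miR-142a-3p and miR-223-3p in hypothalamus IPs. The overlap there rests on the other members of the list. The part of these cells in the result was not tested, and in whole tissue fewer cells of a type and less RNA per cell cannot be told apart.

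The other arms of the same hairpins allow the comparison of strands cut from 1 precursor. Of the 16 relatives listed, 12 other arms and 4 guide arms of the sister cluster on chromosome X, 2 were tested in brown fat with 1 higher, 1 in liver with 0 higher, 1 in muscle with 1 higher and 2 in hypothalamus with 1 higher, and 0 were lower by edgeR. The 4 with the highest mean CPM were miR-92b-5p, miR-106b-3p, miR-17-3p and miR-25-5p. The hairpin of miR-106b is shown because its arms parted in the pull-down, with the mature arms in capitals, 5p first; it lies at chr5:138165737-138165818 on the minus strand.
Mir106b: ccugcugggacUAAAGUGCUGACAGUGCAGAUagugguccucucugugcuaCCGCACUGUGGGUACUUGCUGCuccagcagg
miR-106b-3p stood at 184.5, 155.6, 142.3, 104.5 and 126.8 CPM in brown fat IPs and 129.6, 138.1, 97.4, 129.1 and 154.0 CPM in brown fat inputs, with the groups overlapping. The 5p arm, given above, was at most at 7.69 CPM in these IPs. In counts, the 3p arm had 312 in the IPs and 933 in the inputs, and the 5p arm 4 and 1095. The log2 change of the 3p arm was 1.26 (SE 0.27, adjusted p = 0.000428, edgeR) in brown fat, 1.27 (SE 0.29) in muscle, and not called in liver (0.77) and hypothalamus (−0.05). With the total count it missed the threshold in brown fat (0.14, adjusted p = 0.671) and muscle (0.50), and without a filter in muscle (0.47). In liver it was −0.18 with RLE and −0.96 with the total count. The 3p arm has 63.6% G and C and the 5p arm 42.9%.

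miR-92b-5p, the other arm of miR-92b, was higher in hypothalamus IPs than in inputs, like its partner but by more. Its mean was 689.2 CPM in IPs and 29.4 CPM in inputs there, where miR-92b-3p had 3514 and 690.1 CPM. miR-92b-5p stood at 1105, 463.9, 216.0, 1330 and 330.9 CPM in hypothalamus IPs and 36.8, 48.0, 27.7, 17.97 and 16.6 CPM in hypothalamus inputs, with no overlap. It rose by 5.27 (SE 0.54, adjusted p = 4.24e-06, edgeR). In the 15 libraries of each type from the other tissues it was at 0 to 2.17 CPM in IPs and 0 to 0.516 CPM in inputs. Its sequence has 62.5% G and C.
miR-92b-5p: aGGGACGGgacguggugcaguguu
miR-17-3p was at 10.2 ± 12.6 CPM in brown fat IPs and 16.2 ± 11.2 CPM in brown fat inputs and was not called (log2 change 0.06). miR-25-5p did not pass the filter in any of the 4 tissues, with 14.5 ± 8.29 CPM in brown fat IPs and 2.89 ± 2.62 CPM in brown fat inputs (SD, n = 5 each).

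A miRNA of the same seed at another locus was looked at after the values were seen. miR-32-5p carries the miR-25/92 seed but has 31.8% G and C.
miR-32-5p: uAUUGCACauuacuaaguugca
It stood at 0.612, 4.18, 0, 2.37 and 0 CPM in brown fat IPs and 40.7, 99.2, 149.2, 137.9 and 217.6 CPM in brown fat inputs. The IPs held 1 rounded count of it, 2.0 before rounding, against 867 in the inputs. On the rounded counts it was 113-fold lower, with an exact 95% interval of 20.3 to 4480, so the fold depends on the rounding. In the other tissues it was at 0 rounded counts in IPs, against 96 in liver, 132 in muscle and 150 in hypothalamus inputs. Every brown fat IP of miR-32-5p lay below every input, where those of miR-92a-3p and miR-25-3p overlapped with theirs.

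Across all entries the change in the pull-down went with base composition. Of the entries tested, 84% to 87.2% had a RefSeq mature sequence. Spearman's rho of the log2 change with the share of G and C was 0.39 in brown fat (266 miRNAs), 0.40 in liver (168), 0.35 in muscle (231) and 0.43 in hypothalamus (238), given as a description, since the points share libraries. With the number of U, the base that 4TU replaces, rho was 0.05, 0.15, 0.12 and −0.04. In brown fat the median change was −2.41 among 55 miRNAs under 40% G and C, −1.18 among 100 from 40% to below 50%, 0.63 among 81 from 50% to below 60%, and 1.25 among 30 at 60% or more. The part of base composition in the members' values was not tested.

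**Figure D5:**
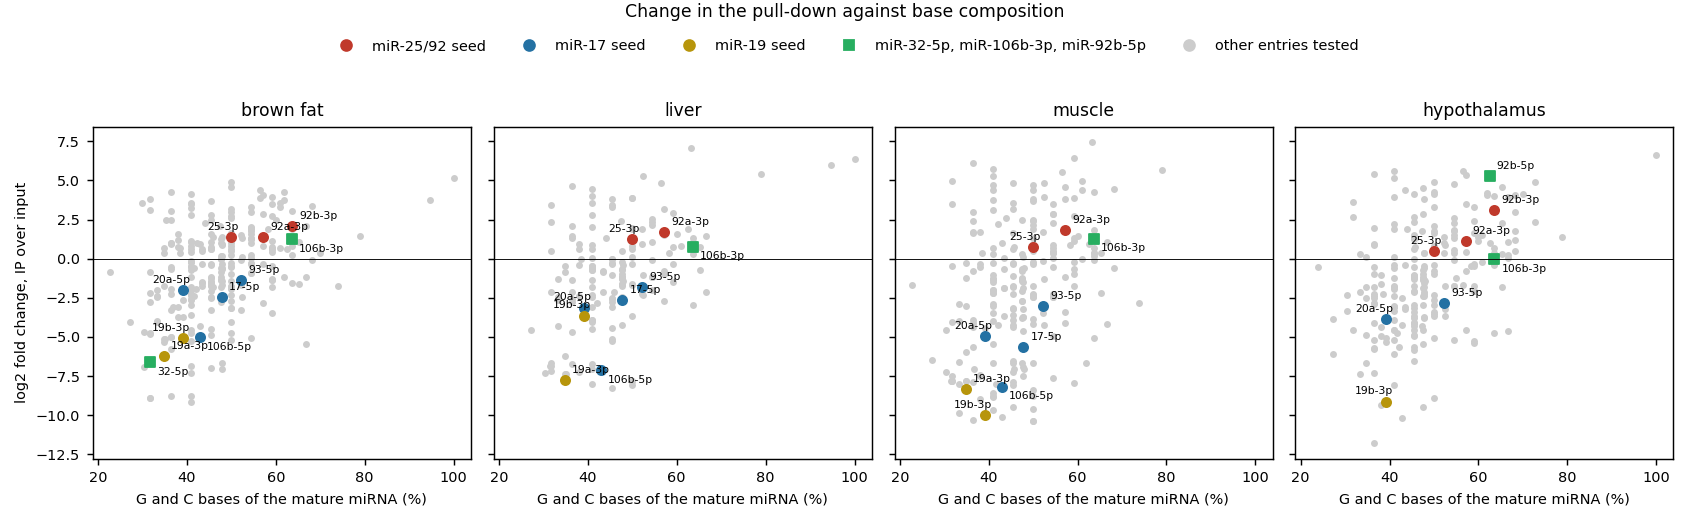
Points are the miRNAs tested with a RefSeq sequence, with the share of G and C of the mature strand on the x axis and the log2 fold change of IP over input on the TMM scale on the y axis. Members are coloured by seed, and miR-32-5p, miR-106b-3p and miR-92b-5p are green squares where tested. The members with 50.0% G and C or more lie above 0 except miR-93-5p, at 52.2%, and those below 50% lie under 0; the total count as scaling puts miR-25-3p in hypothalamus at −0.33.

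The miRNAs most alike over the 40 libraries, by Pearson's r of log2(CPM + 1) among 180 non-members with a mean of at least 100 CPM, were miR-126b-3p and miR-126a-5p (0.94) and miR-26b-5p (0.93) for miR-17-5p. For miR-19b-3p they were miR-101a-3p, miR-126a-5p and miR-126b-3p (each 0.93), and for miR-92a-3p miR-3963 (0.85), miR-455-3p (0.82) and miR-423-3p (0.78). The libraries fall into 8 groups, so these values describe the pattern over groups.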

How the data were processed

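Small RNA was sequenced from IPs and inputs of 4 tissues. The deposited table holds expected counts per mature miRNA, and the authors' tools were fastp, STAR and featureCounts with mm10, per the submitters' processing notes. Versions, annotation, strand setting and multi-mapping were not given in the sources used here. Of the positive values, 18.92% were whole to within 0.001. Rounding them moved no library total by more than 0.1272%. It was done per library, and sums of few counts could move by a larger share. Folds and intervals from few IP counts use the rounded values.

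edgeR 4.0.16 in R 4.3.3 was run with filterByExpr by group, TMM scaling and the quasi-likelihood test over all entries, with Benjamini-Hochberg adjustment and a threshold of 0.05. IP was tested against input within a tissue on 10 libraries, interactions on 20 and inputs on 20. Within-library ratios were tested by two-sided exact permutation, without regard to the mouse. Alternatives were RLE scaling, total counts, no filter, the mouse as a block, DESeq2 1.42.0, each library left out, all 40 libraries in 1 fit, and a pseudocount of 1. Intervals and bounds cover counting error only, since no molecular identifiers are named for these PCR-amplified reads. Sequences and hairpin positions came from RefSeq tables of GRCm38.p6. Python 3.11.15 with pandas 2.3.3 and matplotlib 3.10.9 made summaries and figures. The scripts were tested on simulated data.

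Named were all 10 members, the 4 relatives with the highest mean CPM, and the 3 miRNAs most alike to miR-17-5p, miR-19b-3p and miR-92a-3p. The members and lists were chosen with earlier results of these data known. Replicate numbers pair IPs with inputs of the same mouse in 19 of 20 pairs, and brown fat replicate 5 joins different mice. Correlations of paired deviations over the 19 ran from −0.19 to 0.57 (median 0.1), and 9 were over 0.1. The block was the mouse in each fit, never the replicate number; across tissues the input groups share 1 to 4 mice, 1 for brown fat and liver. The scalings and filter tried for miR-106b-3p and miR-92b-5p were chosen after seeing the data.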

Additional observations from a re-analysis of the deposited data

Results flagged for a closer look

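Of 52 groups of 5 libraries examined, 7 held a library far from the other 4, where chance gives about 1 in 20. Liver IP 4, the library with 11928 counts, was far above the others for miR-92a-3p, at 4094 CPM against a next value of 1304 CPM, and for miR-25-3p, at 2389 against 637.5 CPM. Liver input 4 was high for miR-17-5p, at 220.5 against 137.6 CPM, and for miR-106b-5p, at 71.2 against 33.6 CPM. Hypothalamus input 3 was high for miR-106b-5p, at 131.5 against 36.5 CPM. Brown fat input 2 was high for miR-25-3p, at 2415 against 1729 CPM, and muscle IP 5 was high for it, at 613 against 236.2 CPM.

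The change of IP over input differed between tissues for 3 members by edgeR's test of the difference. miR-20a-5p differed by 2.66 between brown fat and muscle, where it had 3 rounded counts over the 5 IPs. miR-92a-3p differed by −1.61 and miR-92b-3p by −2.88 between brown fat and hypothalamus, and both of these turned sign when any 1 of 17 libraries was left out.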

How the results depend on the processing

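Of 488 alternatives for IP against input, 461 gave the same call, 23 lost it and 4 turned sign. The falls of those members with the miR-17 or miR-19 seed that passed the filter held in all. Where such a member was at or near 0 rounded counts over the IPs, the alternatives could hardly change its call. For these members the agreement is a weak check. In hypothalamus miR-17-5p, miR-106b-5p and miR-19a-3p did not pass the filter, so their falls there were not part of this count. The mouse as a replicate block changed no call there. Entries called without a filter were 401, 235, 345 and 391 in brown fat, liver, muscle and hypothalamus, against 244, 149, 228 and 206, and 345 with DESeq2 and 329 with all 40 libraries in hypothalamus. miR-25-3p was −0.05 in muscle without a filter, and in hypothalamus −0.33 with total counts, −0.14 without a filter and −0.25 to 0.71 with libraries left out.

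For interactions 425 of 648 alternatives gave the same call, 4 lost it, 43 gained it and 176 turned sign. Brown fat against liver called 4 entries with RLE and 5 without a filter, against 26, and 1 to 32 with libraries left out. There, RLE, total counts and no filter gave −0.47, −0.15 and −0.56 for miR-92a-3p, and RLE and no filter gave −0.07 and −0.13 for miR-25-3p and −0.27 and −0.35 for miR-92b-3p. With libraries left out, values were −0.02 to 2.34 for miR-17-5p, −2.36 to 5.82 for miR-19b-3p, −0.56 to 0.05 for miR-92a-3p, −0.18 to 0.55 for miR-25-3p and −0.38 to 0.61 for miR-92b-3p. Against muscle miR-92b-3p was 0.02 with total counts, 0.22 without a filter and −0.30 to 0.42 with libraries left out, miR-19a-3p was −0.13 to 2.94, and 45 to 75 entries were called, against 68. Against hypothalamus 59, 42 and 94 entries were called with RLE, total counts and no filter, against 145. RLE and total counts gave 0.70 and 1.05 for miR-17-5p, 0.73 and 1.16 for miR-93-5p and 0.30 and 0.63 for miR-25-3p, and the mouse as a replicate block −0.04 for miR-20a-5p. With libraries left out, values were −0.58 to 5.98 for miR-17-5p, −2.88 to 1.14 for miR-19a-3p, −1.73 to 1.90 for miR-92a-3p, −0.10 to 4.00 for miR-106b-5p, −0.48 to 3.32 for miR-93-5p, −0.87 to 2.82 for miR-25-3p and −3.04 to 0.91 for miR-92b-3p. The cause was not tested.

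For inputs 1427 of 1500 alternatives gave the same call and 25 turned sign. Brown fat against liver called 310 entries with total counts and 104 with the mouse as the replicate block, against 204. Total counts gave 0.97 for miR-17-5p, 0.80 for miR-19a-3p, 1.0 for miR-20a-5p, 1.07 for miR-19b-3p, 0.68 for miR-92a-3p, 1.22 for miR-25-3p and 0.48 for miR-92b-3p. The mouse as a replicate block gave −0.09 for miR-18a-5p, −0.17 for miR-93-5p and 0.34 for miR-25-3p, and libraries left out −0.12 to 0.42 for miR-18a-5p and −0.14 to 0.02 for miR-25-3p. Brown fat against muscle called 372 with total counts, against 178, and miR-19a-3p was −0.01 with RLE. Hypothalamus against brown fat called 597 without a filter, against 373. With total counts miR-106b-5p was 0.53 against liver, and against muscle miR-17-5p was 0.41, miR-18a-5p 0.79, miR-20a-5p 0.28, miR-19b-3p 0.34, miR-92a-3p 0.77, miR-106b-5p 1.65, miR-93-5p 1.08 and miR-25-3p 1.0.

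For the other arms, under alternatives chosen after seeing the data, miR-106b-3p in liver was −0.18 with RLE and −0.96 with total counts, against 0.77.

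For ratios 166 of 176 alternatives gave the same call. That of miR-92b-3p to miR-92a-3p was 0.45 to 0.72 in brown fat with libraries left out, losing its call in 7 of 10, and −0.16 to 0.48 in muscle. Depth limits the IPs, where a count of 0 sets a bound and shows no absence.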
